A study of Mus musculus with 6 samples.

Results

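The Cyp2c genes encode cytochrome P450 enzymes of the endoplasmic reticulum, and 10 of them were followed in livers of Mttp-IKO mice and their controls: Cyp2c29, Cyp2c37, Cyp2c38, Cyp2c39, Cyp2c40, Cyp2c44, Cyp2c50, Cyp2c54, Cyp2c69 and Cyp2c70. These 10 genes were chosen by the difference of their counts between these same Mttp-IKO and control pools, so what separates the genotypes below is a description of them and carries no test. The gene table lists 9 of the 10 by these symbols. Cyp2c44 is listed under its other name, Cyp2c23, and was matched through the RefSeq synonym. The 10 make up most of the 16 Cyp2c rows among 41388 genes, the others being Cyp2c55, Cyp2c65, Cyp2c66, Cyp2c67, Cyp2c68 and the pseudogene Cyp2c53-ps.

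P450 enzymes bind a substrate at a heme and insert 1 atom of molecular oxygen into it, with electrons handed over by cytochrome P450 reductase. The liver uses the Cyp2c branch on drugs and on its own lipids: several mouse members turn arachidonic and linoleic acid into epoxides or hydroxylated fatty acids, others act on retinoids, and Cyp2c70 makes the muricholic acids that set mouse bile apart from human bile. In mice the branch grew by repeated gene duplication, several copies are expressed unequally in males and females under the pattern of growth hormone release, and several respond to the xenobiotic receptors CAR and PXR.

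Liver RNA was sequenced after removal of ribosomal RNA from 3 control pools and 3 Mttp-IKO pools. The methods state that each pool combined RNA of 3 to 4 mice. The sample records give 12 livers for the series, and the difference was not resolved. All mice were male C57BL/6 animals carrying Mttp f/f and Villin Cre ERT2, 12 to 16 weeks old, given the methionine/choline-deficient (MCD) diet for 3 weeks from 3 weeks after injection, and livers were taken after a 4 h fast. Mttp-IKO mice received tamoxifen for 5 days and controls, which the labels call wild type, received vehicle, so tamoxifen and the deletion cannot be told apart. The Villin promoter drives Cre in intestinal epithelium, which leaves hepatic Mttp, which loads triglyceride onto nascent lipoproteins, outside the deletion. Liver Mttp stood at 90.4 to 186 CPM (read counts relative to the pool's reads on genes, scaled between pools by TMM) in control livers and 129 to 161 CPM in Mttp-IKO livers, and so does not check the labels.

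The pools held 25271585 to 36238734 reads on genes. All 4 Y-linked genes examined were present in every pool. Hepatocyte markers summed to 62265 to 96131 CPM in control pools and 112940 to 170574 CPM in Mttp-IKO pools, whereas the fibroblast and stellate cell list summed to 842 to 1493 and 452 to 507 CPM, with 4 of its 7 genes called lower. In bulk liver, a change in the number of cells of a type and a change in RNA per cell cannot be told apart. The striated muscle list summed to 66.5, 553 and 0.875 CPM in control pools 1, 2 and 3 and to at most 1.03 CPM in the Mttp-IKO pools, and Mttp-IKO pool 3 stood apart in its small RNA share, 0.289% of reads against 1.92 to 3.51%, and in the share of coding reads from genes of 1000 to 2000 nt, 15.9% against 19.5 to 20.6%. Of 8 intestinal markers, Apoa4 (1737 and 1721 CPM on average), which liver also expresses, Fabp2 (36.1 and 20.8) and Vil1 (2.02 and 2.42) were detected, and Sis, Lct, Alpi, Cdx1 and Cdx2 averaged at most 0.283 CPM in either genotype.

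All 16 Cyp2c genes lie on mouse chromosome 19 (GRCm38). Members Cyp2c29 (chr19:39269405-39330713) to Cyp2c70 (chr19:40153353-40187333) form 1 cluster, and Cyp2c44 (chr19:44005022-44029247, minus strand) lies apart on the same chromosome. The members are split into 9 coding exons each, and the closest copies are nearly identical. Cyp2c40 and Cyp2c69 differ at 31 of 1473 aligned coding bases (97.9% identity), Cyp2c40 and the non-member Cyp2c68 at 28 (98.1%), and Cyp2c37 and Cyp2c50 at 57 of 1470 (96.1%). Only reads that aligned to 1 place were counted, so identical stretches go uncounted and the letters that differ decide which gene a read is given to.

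The stretch of exon 2 that best separates the Cyp2c40 group shows how few such letters there are. These 90 bases, read on the coding (minus) strand from the GENCODE M21 transcripts of GRCm38, hold 10 positions, in capitals, at which the 4 genes are not all alike.
Cyp2c40 (chr19:39807542-39807631): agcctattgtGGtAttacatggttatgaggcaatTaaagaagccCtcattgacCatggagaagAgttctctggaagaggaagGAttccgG
Cyp2c69 (chr19:39881473-39881562): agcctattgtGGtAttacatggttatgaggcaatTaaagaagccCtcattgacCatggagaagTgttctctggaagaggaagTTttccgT
Cyp2c67 (chr19:39643619-39643708): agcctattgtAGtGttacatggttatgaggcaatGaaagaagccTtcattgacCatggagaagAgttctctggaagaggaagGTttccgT
Cyp2c68 (chr19:39739403-39739492): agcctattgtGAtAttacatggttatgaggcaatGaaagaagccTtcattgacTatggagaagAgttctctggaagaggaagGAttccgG
Elsewhere the same genes cannot be separated by a read of this length or can be by a single letter, as in this stretch of exon 4, in which Cyp2c40 and Cyp2c69 are the same over all 90 bases.
Cyp2c40 (chr19:39803837-39803926): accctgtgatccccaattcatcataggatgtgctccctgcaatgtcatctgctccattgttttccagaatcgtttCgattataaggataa
Cyp2c69 (chr19:39877573-39877662): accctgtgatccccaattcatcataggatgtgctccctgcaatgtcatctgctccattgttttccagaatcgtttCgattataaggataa
Cyp2c67 (chr19:39639924-39640013): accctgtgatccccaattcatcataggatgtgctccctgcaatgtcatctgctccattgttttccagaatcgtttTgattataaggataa
Cyp2c68 (chr19:39735644-39735733): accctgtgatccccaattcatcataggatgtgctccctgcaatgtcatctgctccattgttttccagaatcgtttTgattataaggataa

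The second group of close copies is Cyp2c37, Cyp2c50 and Cyp2c54. Their most distinct 90 bases, in exon 6, differ at 17 positions, again in capitals and on each gene's coding strand.
Cyp2c37 (chr19:40000418-40000507): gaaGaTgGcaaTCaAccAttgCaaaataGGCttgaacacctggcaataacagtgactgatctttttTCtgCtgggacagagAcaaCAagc
Cyp2c50 (chr19:40096717-40096806): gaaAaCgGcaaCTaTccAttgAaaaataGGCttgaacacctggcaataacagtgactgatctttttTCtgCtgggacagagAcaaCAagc
Cyp2c54 (chr19:40047556-40047645): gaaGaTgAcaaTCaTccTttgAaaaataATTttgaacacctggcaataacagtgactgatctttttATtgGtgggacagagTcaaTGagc

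How much of each member a short read can identify was counted by sliding a window along its longest transcript and asking whether the same letters occur in a transcript of any other gene, over 141767 transcripts. With windows of 100 bases, 55.9% of Cyp2c40 and 63.7% of Cyp2c69 were found in no other gene. The shares were 90.6% for Cyp2c50, 92.4% for Cyp2c54 and 95.3% for Cyp2c37. Cyp2c29, Cyp2c38, Cyp2c39, Cyp2c44 and Cyp2c70 were unique throughout at that length. With windows of 50 bases the share fell to 27.9% for Cyp2c40, 45.2% for Cyp2c69 and 69.3% for Cyp2c50, while Cyp2c44 and Cyp2c70 stayed at 100%. Cyp2c40 shared 26.8% of its 100-base windows with Cyp2c69, 16% with Cyp2c68 and 13.6% with Cyp2c67. The read length is not given in the sources used here, so the share of reads lost from each gene is not known, and the share of sequence that is not unique was largest for Cyp2c40 at each of the 4 window lengths tried.

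**Figure D1:**
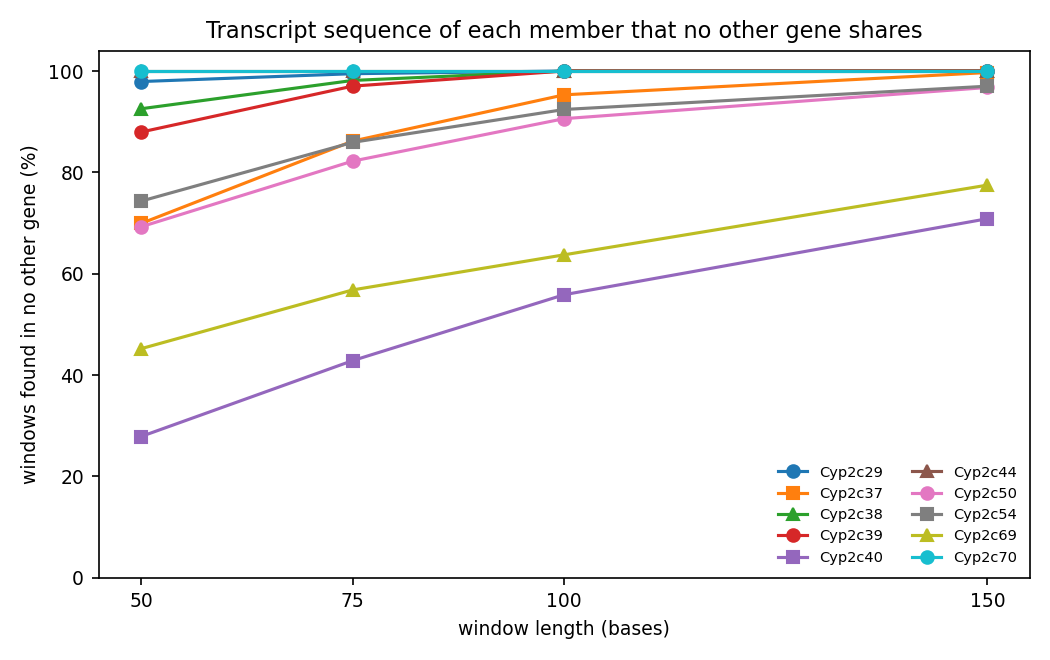
Share of windows along the transcript of each of the 10 members that occur in no transcript of another gene (vertical axis, percent) by window length (horizontal axis, bases). Cyp2c40 and Cyp2c69 run lowest, at 27.9% and 45.2% for 50 bases, and Cyp2c44 and Cyp2c70 lie at 100% throughout.

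Across the family, levels were higher in Mttp-IKO livers for most members but not by the same factor. The summed level of the 10 members was 332, 762 and 509 CPM in the control pools and 905, 1260 and 1411 CPM in the Mttp-IKO pools. All Mttp-IKO pools lay above all control pools, and the means were 534 ± 216 and 1192 ± 260 CPM (SD, n = 3), a ratio of 2.23. By edgeR's quasi-likelihood test with Benjamini-Hochberg adjustment over 17287 genes, 3 members passed an adjusted p of 0.05 as higher (Cyp2c29, Cyp2c40 and Cyp2c69), 0 as lower, and 7 did not pass, beside a background of 0.92% of all genes called higher, 3.09% called lower and 4.01% called in either direction. At an unadjusted edgeR p under 0.05 there were 6 members, beside 3977 of the 17287 genes. DESeq2 and limma-voom also called 0 members lower. The log2 fold change was above 0 for 9 members, beside 50.5% of all genes, and the median of the 10 was 1.60, beside 0.0057 over all genes. Because the members were named from this contrast, nothing is read from these counts.

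For 7 members all Mttp-IKO pools lay above all control pools, beside 14.5% of all genes, and for 3 (Cyp2c44, Cyp2c54 and Cyp2c70) the genotypes overlapped. The summed hepatocyte markers moved in the same direction. Of the 10 markers edgeR called 0 (4 at an unadjusted p under 0.05), DESeq2 3 and limma-voom 0. Their median log2 fold change was 0.66, and Ttr, Hpx and Apoa2 had negative values (-0.55, -0.29 and -0.22). Alb made up most of the sum, at 40131, 69005 and 53314 CPM in controls and 97241, 132236 and 84785 CPM in Mttp-IKO pools. Per 1000 CPM of the 10 hepatocyte markers, the summed members stood at 5.33, 7.92 and 6.48 CPM in controls and 7.02, 7.39 and 12.5 CPM in Mttp-IKO pools, which overlap. On that scale, chosen after the data had been seen, 4 members (Cyp2c29, Cyp2c37, Cyp2c40 and Cyp2c69) separated the genotypes, beside 0.671% of all genes higher without overlap, and 6 overlapped. Cyp2c69 passed the filter on low counts only through its Mttp-IKO pools, and the members were named from this contrast. Nothing is therefore read from the count of 4. Relative to the hepatocyte markers the log2 ratio of means was 1.48 for Cyp2c29, 1.72 for Cyp2c40 and 3.97 for Cyp2c69. The part of hepatocyte content in these differences was not tested.

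**Figure D2:**
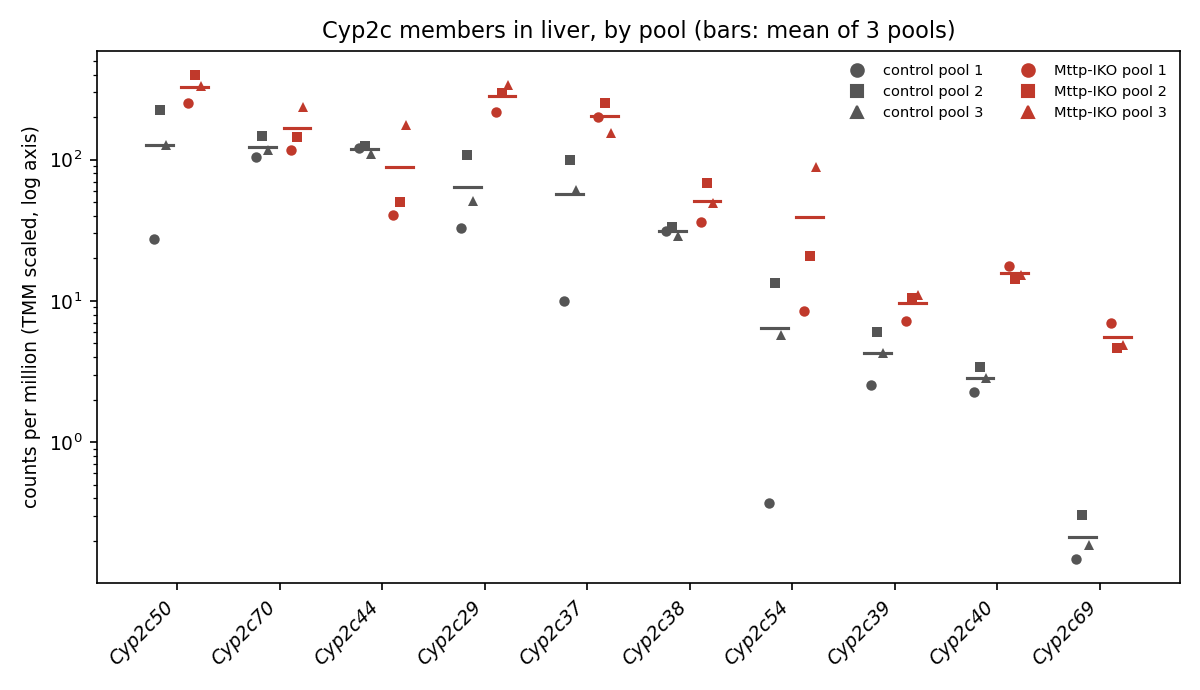
Level of each member (vertical axis, TMM-scaled CPM on a log axis) in the 3 control pools (grey) and 3 Mttp-IKO pools (red), with the symbol giving the pool and the bar the mean. Cyp2c29, Cyp2c40 and Cyp2c69 separate cleanly, the control pools of Cyp2c37, Cyp2c50 and Cyp2c54 are far apart, and Mttp-IKO pool 3 is the high point of Cyp2c44, Cyp2c54 and Cyp2c70.

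Cyp2c29 encodes an arachidonic acid epoxygenase and is a classical target of CAR. It was measured at 32.6, 108 and 51.0 CPM in the control pools and at 216, 296 and 339 CPM in the Mttp-IKO pools. The lowest Mttp-IKO pool was above the highest control pool, and the rise was 2.15 ± 0.423 on the log2 scale (± SE). Control pools differed among themselves by 3.30-fold, Mttp-IKO pools by 1.57-fold. Nearly all of its sequence is its own (97.9% of 50-base windows), so near-identical copies take few of its reads. Without control pool 1, control pool 3, Mttp-IKO pool 1, 2 or 3 it no longer passed the threshold, while its log2 fold change stayed between 1.81 and 2.74 over the scalings by library, tools, filters and sets of pools tried, and was 1.48 relative to the hepatocyte markers.

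Cyp2c40, an enzyme that hydroxylates arachidonic acid to 16-HETE, was a low-level gene that rose with little spread. It was measured at 2.26, 3.41 and 2.84 CPM in controls and 17.6, 14.3 and 15.3 CPM in Mttp-IKO pools, from 91 to 123 and 364 to 546 reads. The groups lie far apart, with means of 2.84 ± 0.577 and 15.7 ± 1.70 CPM (SD, n = 3), a 5.54-fold difference. The log2 fold change of 2.47 ± 0.214 had the smallest SE of the 10 members.

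Cyp2c69, whose substrates are less studied, was near the limit of detection in controls. It had 6, 11 and 6 reads there (0.149, 0.305 and 0.187 CPM) and 216, 136 and 117 reads in Mttp-IKO pools (6.96, 4.66 and 4.91 CPM). A count of 3 reads corresponds to 0.0828 to 0.119 CPM, so the control values lie just above that floor. The gene passed the filter on low counts only through its Mttp-IKO pools and therefore had to differ, and the log2 fold change was 4.67 ± 0.371, a ratio of means of 25.8.

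Cyp2c40 and Cyp2c69 are neighbours that share more sequence with each other than any other pair of members. Cyp2c40 had 15.2, 11.2 and 15.2 times the reads of Cyp2c69 in the control pools, and 2.53, 3.07 and 3.11 times in the Mttp-IKO pools. The control ratios rest on 6 to 11 reads of Cyp2c69, and since Cyp2c69 passed the filter through its Mttp-IKO pools, nothing is read from the change in ratio. Reads from the stretch shared in full are given to neither gene. Cyp2c40 still passed the threshold without any 1 pool except Mttp-IKO pool 2, without which edgeR called 0 of all genes (3221 had an unadjusted p under 0.05). Cyp2c69 passed in the same fits, from which nothing is read because of the filter.

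Their other close copies, which are no members, did not pass the test. Cyp2c68 stood at 81.8, 142 and 115 CPM in controls and 214, 215 and 193 CPM in Mttp-IKO pools, with a log2 fold change of 0.87 ± 0.219 and an adjusted p of 0.0673 by edgeR. Its pools separated, and it passed the threshold with DESeq2 (adjusted p 0.00544), with the trend in gene length removed (edgeR adjusted p 0.0399) and without control pool 2 (edgeR adjusted p 0.0476). Cyp2c67 stood at 26.8, 45.3 and 35.0 CPM against 45.03, 46.4 and 88.9 CPM (log2 fold change 0.75 ± 0.307, edgeR adjusted p 0.194), with overlapping pools. These 4 genes, at 96.5% or more coding identity to one another, thus lay at 0.75, 0.87, 2.47 and 4.67 on the log2 scale, and the differences between them were not tested.

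**Figure D3:**
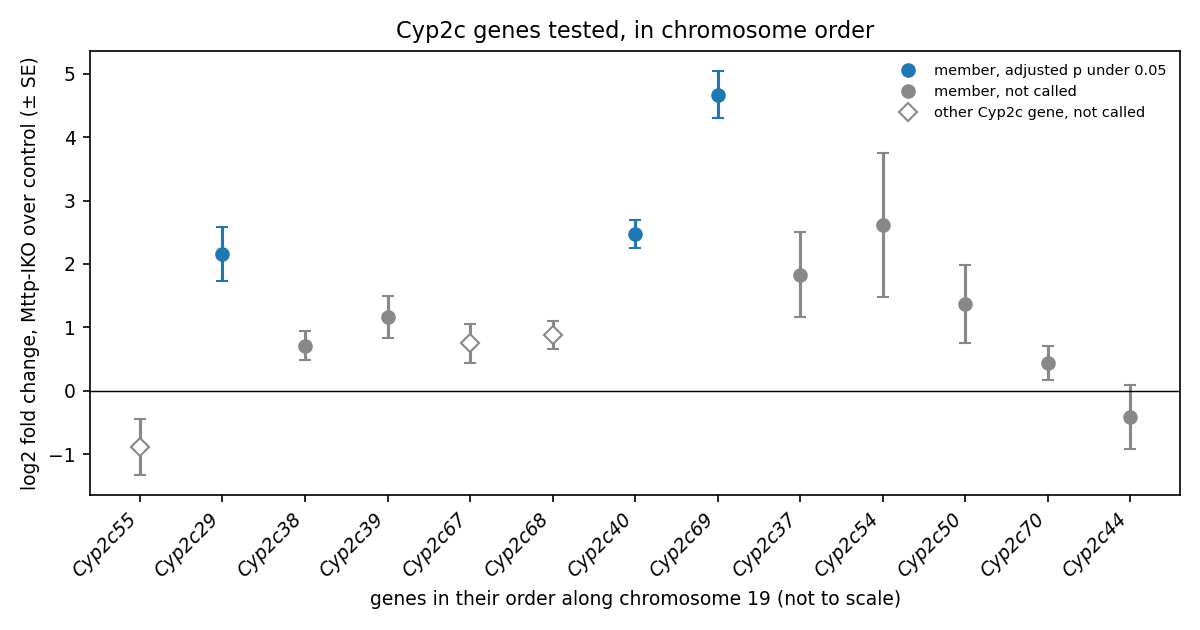
Log2 fold change of Mttp-IKO over control with its SE (vertical axis) for the 10 members and the 3 other Cyp2c genes tested, in their order along chromosome 19. Cyp2c40 and Cyp2c69 stand beside the lower Cyp2c67 and Cyp2c68, and Cyp2c70 and Cyp2c44 at the right end lie near 0.

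Cyp2c37, Cyp2c50 and Cyp2c54 are the second set of neighbouring copies, with 12-HETE as a main product of Cyp2c37 and epoxides of linoleic and arachidonic acid as products of the others. Cyp2c37 was measured at 9.94, 100 and 60.8 CPM in controls and 201, 252 and 154 CPM in Mttp-IKO pools. Cyp2c50 was measured at 27.5, 226 and 128 CPM against 253, 398 and 335 CPM. In both genes the Mttp-IKO pools lay above the controls, but control pool 1 was 10.1-fold below control pool 2 for Cyp2c37 and 8.22-fold below for Cyp2c50. Log2 fold changes were 1.83 ± 0.668 and 1.37 ± 0.614, and neither passed the threshold. Without control pool 1 they were 1.31 and 0.87, and without control pool 2 they were 2.503 and 2.07.

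Cyp2c54 varied the most. It was measured at 0.372, 13.3 and 5.75 CPM in controls, from 15, 480 and 184 reads, and at 8.54, 20.8 and 89.1 CPM in Mttp-IKO pools. The controls spanned 35.8-fold and the Mttp-IKO pools 10.4-fold, the groups overlapped, and the log2 fold change of 2.61 ± 1.13 ranged from 1.18 to 3.67 over the scalings by library, tools, filters and sets of pools tried, the low end without Mttp-IKO pool 3 and the high end without control pool 2. The 3 genes kept the same order of control pools, with pool 1 lowest and pool 2 highest. In Mttp-IKO pools they did not move together: Cyp2c37 was lowest in pool 3, where Cyp2c54 was highest. Cyp2c50 had 2.77, 2.26 and 2.10 times the reads of Cyp2c37 in controls and 1.26, 1.58 and 2.17 times in Mttp-IKO pools.

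Cyp2c38 and Cyp2c39 are the pair next to Cyp2c29, at 94.2% coding identity to each other. Cyp2c38 forms an epoxide of arachidonic acid and Cyp2c39 hydroxylates retinoic acid. Cyp2c38 was measured at 31.4, 33.3 and 28.9 CPM in controls and 36.4, 68.3 and 49.0 CPM in Mttp-IKO pools, with a log2 fold change of 0.71 ± 0.228 that turned to -0.13 relative to the hepatocyte markers. Cyp2c39 was measured at 2.55, 6.02 and 4.28 CPM against 7.16, 10.6 and 11.1 CPM, with a log2 fold change of 1.16 ± 0.330. For both the Mttp-IKO pools were all above the controls, by a narrow margin, and neither passed the threshold in the edgeR fit. Cyp2c39 passed it with DESeq2, with the replicate number as a block and without control pool 2. Cyp2c38 and Cyp2c29 thus sit next to each other in the cluster, and Cyp2c29 showed a ratio of means of 4.45 and Cyp2c38 of 1.64.

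Cyp2c70, the enzyme of muricholic acid synthesis, did not separate the genotypes. It was measured at 105, 146 and 118 CPM in controls and 117, 145 and 237 CPM in Mttp-IKO pools. Mttp-IKO pools 1 and 2 lay within the control range, only pool 3 was above it, and the log2 fold change was 0.44 ± 0.275. Without Mttp-IKO pool 3 it was 0.10, and relative to the hepatocyte markers -0.28. Its neighbours in bile acid synthesis gave 0 of 6 genes called by edgeR (1 at an unadjusted p under 0.05, 1 called by DESeq2, 0 by limma-voom), among them Cyp27a1 at 138 to 219 and 161 to 264 CPM and Slc27a5, the bile acid CoA ligase, at 109 to 221 and 230 to 416 CPM (edgeR adjusted p 0.109).

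Cyp2c44, an arachidonic acid epoxygenase better known from the kidney, was the only member with a negative log2 fold change. It was measured at 120, 125 and 110 CPM in the control pools and at 40.7, 50.3 and 177 CPM in the Mttp-IKO pools. Pools 1 and 2 were well below every control and pool 3 was above every control, so the groups overlap and the log2 fold change was -0.41 ± 0.502. Without Mttp-IKO pool 3 it was -1.38 and passed the threshold as lower. Of 5 kidney markers, Umod and Kap had 0 reads in all pools and the other 3 averaged at most 0.0185 CPM. Mttp-IKO pool 3 is the pool set apart by its small RNA and gene length shares, whose part in this value was not tested.

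Of 8 male-biased genes, 3 (Cyp4a12a, Elovl3 and Cyp7b1) shared with Cyp2c44 Mttp-IKO pools 1 and 2 below and pool 3 above every control, as did 3.22% of all genes tested, and 5 did not. The pattern was noted after the values were seen and was not tested. Cyp4a12a, a fatty acid hydroxylase of male liver, stood at 15.1, 14.5 and 8.59 CPM in controls and at 0.193, 0.446 and 54.3 CPM in Mttp-IKO pools, again low in pools 1 and 2 and high in pool 3. Elovl3, a fatty acid elongase, stood at 3.27, 2.55 and 2.56 CPM against 0.129, 0 and 4.87 CPM. Of the 8, 1 was called higher (Cyp2d9, 133, 237 and 176 against 414, 376 and 422 CPM, log2 fold change 1.15 ± 0.231, edgeR adjusted p 0.0389) and 0 lower. Mup20, a major urinary protein, was not called although its pools were apart, at 390 to 466 and 68.3 to 261 CPM (edgeR adjusted p 0.0994).

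Of 9 female-biased genes tested, 4 were called higher and 0 lower, beside the same 0.92% background, with a median log2 fold change of 2.72. Cyp2b13 stood at 2.03, 3.94 and 3.31 CPM against 26.9, 41.6 and 13.8 CPM (log2 fold change 3.15 ± 0.43, edgeR adjusted p 0.0181), and Cyp3a41a at 0.545, 1.86 and 2.09 against 13.7 to 50.7 CPM (4.68 ± 0.646, edgeR adjusted p 0.0181). Both were lowest in pool 3 among the Mttp-IKO pools, as were 7 of the 9, beside 40.1% of all genes, and the other 2, Cyp3a44 (181, 123 and 286 CPM) and Cyp2a4, were highest there. Cyp3a genes also have close copies. Cyp3a41b and Cyp3a44 were the other genes called. Cyp3a41b, with 2, 3 and 13 reads against 281, 219 and 71, passed the filter on low counts only through its Mttp-IKO pools. It therefore had to differ. Sult2a1 and Hao2, also listed, were too low to be tested. Cyp2a4, the most abundant of the list, overlapped at 413 to 596 and 486 to 1402 CPM. In the growth hormone list 1 of 8 genes was called, Cux2, a female-biased transcription factor, at 4.36, 7.43 and 6.996 against 31.1, 88.8 and 63.8 CPM (log2 fold change 3.29 ± 0.401, edgeR adjusted p 0.0159). Ghr, the growth hormone receptor, overlapped, at 132, 216 and 173 against 94.3, 112 and 262 CPM, and Stat5b, the transcription factor below it, stood at 67.0 to 69.4 and 64.9 to 75.3 CPM. These lists were written with results of these data known, and all pools were male by label. The Y-linked transcripts show only that each pool held male RNA. Xist, which acts in X inactivation, stood at 0.422 to 0.915 CPM in controls and 0.549 to 1.51 CPM in Mttp-IKO pools.

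**Figure D4:**
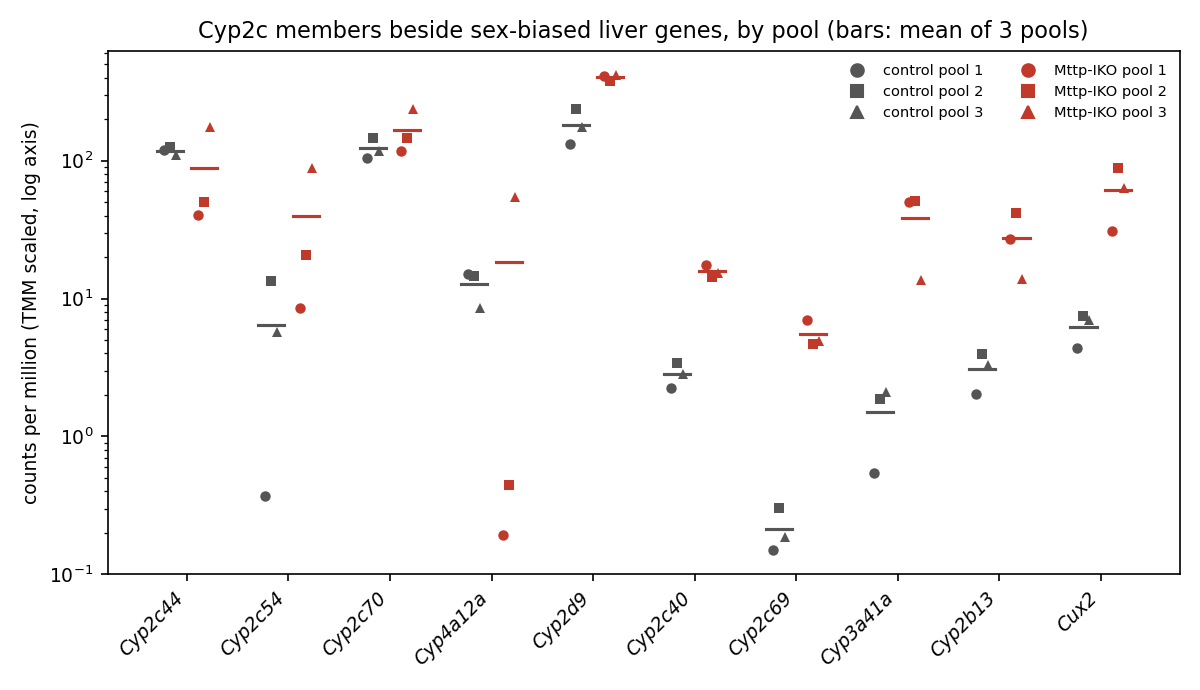
Levels (vertical axis, TMM-scaled CPM on a log axis) of 5 members beside male-biased Cyp4a12a and Cyp2d9 and female-biased Cyp3a41a, Cyp2b13 and Cux2 in each control (grey) and Mttp-IKO (red) pool, with bars for means. Mttp-IKO pool 3 lies above pools 1 and 2 for Cyp2c44, Cyp2c54, Cyp2c70 and Cyp4a12a, and below them for Cyp3a41a and Cyp2b13. Cyp3a44 and Cyp2a4, not plotted, were highest in pool 3.

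On a scale per length, the order of the members changed between genotypes. By RPKM (CPM per kilobase of gene length, as deposited), the controls were led by Cyp2c70 (65.7 ± 8.60, SD, n = 3) and Cyp2c44 (64.2 ± 4.69), followed by Cyp2c50 (45.3 ± 34.4), Cyp2c37 (32.5 ± 25.1) and Cyp2c29 (21.8 ± 12.6), and these neighbours overlapped from pool to pool. Mttp-IKO pools were led by Cyp2c50 (105 ± 18.99), Cyp2c37 (103.8 ± 22.4) and Cyp2c29 (86.7 ± 17.8), with Cyp2c70 (78.9 ± 29.7) and Cyp2c44 (42.7 ± 36.6) next, and again neighbours overlapped. Cyp2c69 was lowest in both, at 0.127 ± 0.0434 and 2.94 ± 0.790 RPKM. Taking the unique 100-base windows of a single transcript as the length put Cyp2c50 first in both genotypes. It left 3 of 10 members at their rank in controls and 6 in Mttp-IKO pools. That scale also replaced the deposited gene length, 2918 nt for Cyp2c50 and 3061 nt for Cyp2c29, by transcripts of 1812 and 1783 nt. The part of unique sequence in the new order was therefore not separated from the change in length. Cyp2c29, unique throughout at 100 bases, also changed rank.

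The share of several members in the summed CPM of the 10 differed between genotypes. Cyp2c67 and Cyp2c68 are outside this sum. Cyp2c29 took 9.82 to 14.1% of the summed CPM in control pools and 23.5 to 24.0% in Mttp-IKO pools. Cyp2c44 took 16.5 to 36.3% and 4.00 to 12.5%, and Cyp2c70 took 19.2 to 31.6% and 11.5 to 16.8%. These 3 do not overlap, whereas the share of Cyp2c50 (8.28 to 29.7% and 23.7 to 31.6%) did, and Cyp2c39 held 0.80% in both. Shares within a sum depend on each other, so a larger share of 1 gene lowers the rest.

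**Figure D5:**
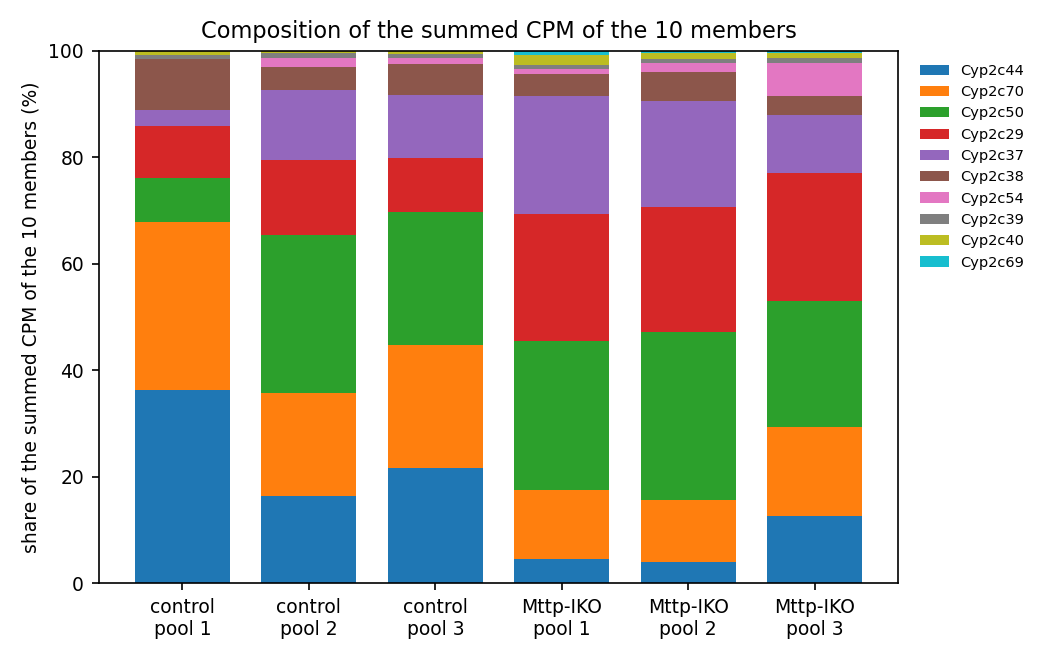
Share of the summed CPM of the 10 members held by each (vertical axis, percent) in the 6 pools (horizontal axis). Cyp2c44 and Cyp2c70 together hold the largest part of control pool 1, and Cyp2c29, Cyp2c37 and Cyp2c50 hold most of the Mttp-IKO pools.

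Promoter sequence was compared because the members that rose and those that did not are copies of one another. RefSeq promoters (GRCm38.p6, 250 bases before to 50 after a start) were found for 13 Cyp2c genes, 8 of them members. The letters CAAAGTCCA on either strand, a form of the site of the hepatocyte factor HNF4A, were found in the promoters of Cyp2c40, Cyp2c65, Cyp2c67, Cyp2c68, Cyp2c69 and Cyp2c70, that is 6 of the 13, against 0.475% of 32851 promoters of the same length. These include Cyp2c40 and Cyp2c69, which rose, and Cyp2c70, which did not pass the test. The letters are absent from this window of Cyp2c29. Cyp2c40 and Cyp2c69 promoters are 98.6% identical over 220 aligned bases before the start. Those of Cyp2c67 and Cyp2c68 are at least 90.1% identical to them and to each other. The matches in Cyp2c40, Cyp2c67, Cyp2c68 and Cyp2c69 are thus not independent examples. The 120 bases before the start are shown for Cyp2c40, Cyp2c69, Cyp2c68 and Cyp2c29, with CAAAGTCCA and TATAAA in capitals.
Cyp2c40 (chr19:39812815-39812934, minus strand): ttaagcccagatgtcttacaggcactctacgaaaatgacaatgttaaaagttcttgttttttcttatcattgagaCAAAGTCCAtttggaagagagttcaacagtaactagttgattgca
Cyp2c69 (chr19:39886770-39886889, minus strand): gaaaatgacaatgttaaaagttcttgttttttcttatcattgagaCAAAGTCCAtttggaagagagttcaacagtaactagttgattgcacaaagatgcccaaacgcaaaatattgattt
Cyp2c68 (chr19:39741102-39741221, minus strand): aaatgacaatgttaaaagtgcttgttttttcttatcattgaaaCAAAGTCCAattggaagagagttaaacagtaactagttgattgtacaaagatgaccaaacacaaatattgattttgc
Cyp2c29 (chr19:39286965-39287084, plus strand): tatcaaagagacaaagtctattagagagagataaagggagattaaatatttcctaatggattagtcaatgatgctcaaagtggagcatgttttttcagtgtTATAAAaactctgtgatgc
The letters TTCNNNGAA, the form bound by STAT5, are in 8.30% of all promoters and in none of the Cyp2c promoters, which bears only on these letters in these windows. AGGTCA, a nuclear receptor half-site, is in 16.3% of all promoters and in those of Cyp2c29, Cyp2c39 and Cyp2c70. A match describes letters and not binding.

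Of the 16 receptors and transcription factors listed for these genes, edgeR called 1 higher and 0 lower, beside 0.92% and 3.09% of all genes. At an unadjusted edgeR p under 0.05 there were 6, beside 3977 of 17287 genes, and DESeq2 called 3 and limma-voom 0. The median log2 fold change of the list was 0.38, beside 0.0057 over all genes. The gene called by edgeR was Nr0b2 (SHP, a repressor induced by bile acids through FXR), at 25.1, 21.1 and 17.3 against 54.5, 45.8 and 33.1 CPM (log2 fold change 1.07 ± 0.225, edgeR adjusted p 0.0435), a call that limma-voom did not make. Hnf4a stood at 564, 686 and 600 against 868, 1203 and 1318 CPM, with pools apart but an edgeR adjusted p of 0.0664. Rxra, the common partner of these receptors, overlapped at 512 to 557 and 542 to 848 CPM. CAR itself, Nr1i3, stood at 73.6, 134 and 90.3 against 175, 204 and 102 CPM and overlapped. Of 5 CAR and PXR target genes other than Cyp2c, Gadd45b was called higher (8.83, 8.40 and 11.5 against 20.3, 21.7 and 25.6 CPM, edgeR adjusted p 0.0192) and Aldh1a1 lower (791, 983 and 915 against 382, 370 and 362 CPM, edgeR adjusted p 0.0181). Cyp2b10, the best known CAR target, stood at 0.843, 2.30 and 1.97 against 5.35, 2.23 and 41.8 CPM, overlapping and highest in Mttp-IKO pool 3, where the pools of Cyp2c29 did not overlap. Cyp3a11, the usual PXR target, overlapped at 631 to 840 and 616 to 969 CPM.

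Calls among the genes that act before and after the Cyp2c enzymes stand beside 4.01% of all genes called in either direction. By edgeR 3977 of 17287 genes had an unadjusted p under 0.05, and DESeq2 called 1995 genes. Of 5 electron donors and partners, 0 were called by edgeR (1 at an unadjusted p under 0.05, 1 called by DESeq2, 0 by limma-voom). Por, the P450 reductase, stood at 979, 1018 and 1122 against 1173, 1809 and 1948 CPM, with pools apart and an edgeR adjusted p of 0.152, and Cyb5a, cytochrome b5, overlapped at 383 to 520 and 306 to 509 CPM. Of the epoxide hydrolases, which open the epoxides that Cyp2c enzymes make, Ephx1 was lower (357, 212 and 240 against 131, 83.5 and 135 CPM, log2 fold change -1.21 ± 0.269, edgeR adjusted p 0.0496), a call that limma-voom did not make, and Ephx2 overlapped at 243 to 289 against 214 to 356 CPM. Of 13 other tested P450 genes of the Cyp2j, Cyp4a and Cyp4f branches, 2 were higher (Cyp2j9, edgeR adjusted p 0.0351, and Cyp4a31, edgeR adjusted p 0.0401) and 1 lower (Cyp4f18, edgeR adjusted p 0.0306), of which limma-voom called only Cyp4a31. Cyp4a14, the most abundant of them, stood at 1161 to 1371 and 1855 to 2890 CPM (edgeR adjusted p 0.0592). Of 9 pericentral hepatocyte genes, whose zone around the central vein is where many P450 genes are expressed, 0 were called by edgeR (2 at an unadjusted p under 0.05, 1 called by DESeq2, 0 by limma-voom). Among them Cyp2e1 stood at 2272, 4879 and 3646 against 4476, 4989 and 5774 CPM, and Glul at 686, 1643 and 1377 against 334, 611 and 825 CPM. Control pool 1 was the lowest of the controls for both, as it was for Cyp2c29, Cyp2c37, Cyp2c39, Cyp2c40, Cyp2c50, Cyp2c54, Cyp2c69 and Cyp2c70.

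Of the other Cyp2c genes, Cyp2c68 was the highest of all 16 by RPKM in both genotypes (69.2 ± 15.8 in controls and 113 ± 7.95 in Mttp-IKO pools, SD, n = 3), and the rest apart from Cyp2c67 were low. Cyp2c55, mainly an intestinal gene, stood at 1.84, 2.94 and 1.56 against 0.580, 1.17 and 1.72 CPM (log2 fold change -0.88 ± 0.446, edgeR adjusted p 0.280). Cyp2c66 had 0 reads in all 6 pools, which allows at most 3 reads per pool, and Cyp2c65 had 0 to 3. The 3 other Cyp2c genes tested gave 0 calls by edgeR (2 at an unadjusted p under 0.05), 1 by DESeq2 and 0 by limma-voom. The pseudogene Cyp2c53-ps had 0, 5 and 0 reads against 8, 5 and 19.

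The genes whose levels followed the summed members most closely over the 6 pools, among 9042 genes, included Fbxo8, Plg, Slc43a1 and Kat2b, with Pearson's r of 0.998, 0.995, 0.993 and 0.993. The 6 points fall into 2 genotypes and share libraries, so r is a description, and edgeR called none of these 4 genes (adjusted p of 0.0937 to 0.201).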

How the data were processed

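Liver RNA pools (3 control, 3 Mttp-IKO) were sequenced after ribosomal RNA depletion. The authors aligned reads with STAR 2.5.1a to Ensembl 76 (GRCm38) and deposited counts of uniquely aligned, unambiguous reads per gene from featureCounts 1.4.6-p5. Strand and read length are not given in the sources used here. The authors also deposited CPM and RPKM, which scale each count by library total and, for RPKM, by gene length in kilobases, and both follow from the counts in all 6 files. A joint table of the pools held the same values, and its 276 duplicate lines were removed. Pools held 25271585 to 36238734 reads. A count of 3 is 0.0828 to 0.119 CPM, for counting error only. A replicate is a pool, so p-values measure the spread between pools.

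Genes passing edgeR's filterByExpr (17287) were tested with edgeR 4.0.16 (TMM, glmQLFit and glmQLFTest, R 4.3.3, Benjamini-Hochberg threshold 0.05). An exact permutation test of 3 against 3 cannot go below 0.1. On simulated counts for this comparison, with 200 of 17139 genes changed 4-fold, edgeR recovered 200 with 15 false calls. The simulation gave every gene the same dispersion and changed only genes above a minimum level. It therefore does not show that a 4-fold change is found in genes whose pools vary more, such as Cyp2c54. Coding sequences were aligned with MAFFT 7.526. The members and all gene lists were chosen with earlier results of these data known. Genes named are all members, other Cyp2c genes, and, per list, the highest in CPM, those past the threshold and, chosen after their values were seen, Nr1i3, Cyp2b10, Cyp4a12a, Elovl3, Cyp7b1 and the intestine and kidney markers. Of the 5 genes most like the summed members, 1 is not reported here. Alternatives were other scalings, DESeq2 1.42.0, limma-voom (limma 3.58.1), no filter, protein-coding genes only, a replicate block, removal of the trend with gene length, and leaving out each pool. Same-numbered pools deviated together with r of 0.139, 0.112 and 0.007, so the numbers were not taken to pair the pools.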

Additional observations from a re-analysis of the deposited data

How the results depend on the processing

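Apart from the hepatocyte marker scale given below, each other scaling, tool, filter and set of pools kept the direction of the 10 members, with 9 of 10 log2 fold changes above 0. In place of 694 genes (159 higher, 535 lower) edgeR's calls became 1995 (657 and 1338) with DESeq2 and 428 with limma-voom (312 lower), total counts gave 907 lower and removal of the length trend 262 higher. The replicate block gave 592 genes and 4 members, Cyp2c39 being added. Leaving out 1 pool gave 0 to 892 genes (0 to 302 higher, 0 to 771 lower). These fits had 2476 to 4686 genes with an unadjusted p under 0.05. The calls rose without control pool 2 (892) or Mttp-IKO pool 3 (864). They fell without each of the other pools, to 0 without Mttp-IKO pool 2. Leaving out 1 pool also gave 0 to 4 members higher, 0 to 1 lower (Cyp2c44, without Mttp-IKO pool 3) and 0 to 1 other Cyp2c genes. The gene lists were also counted together: partners, epoxide hydrolases, other P450 genes, receptors and factors, growth hormone, CAR and PXR targets, bile acid, sex-biased and pericentral genes. In these lists together edgeR called 13 genes with all pools and 0 to 17 without 1 pool, and DESeq2 called 24. The number was 0 without control pool 1 or Mttp-IKO pool 2, and 1 without control pool 3 or Mttp-IKO pool 1. Other Cyp2c genes called numbered 1 with DESeq2 and 1 with the length trend removed, in place of 0. The log2 ratio of the summed members was 1.16, and 0.91 to 1.503 without 1 pool. Relative to the hepatocyte markers, a scale made up mostly of Alb and added after seeing the data, it was 0.45. On that scale Cyp2c38 (-0.13) and Cyp2c70 (-0.28) turned negative. Total counts moved the median of all genes to -0.17. The cause of these shifts was not tested. The limits are pools in place of single mice, 3 per genotype, and reads shared by near-identical copies, which unique counting leaves out.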
